A study of Mus musculus with 2 samples.

Results

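The BCL-2 family, the caspases, the inhibitors of apoptosis and the adaptors that link them were compared between mouse Tc1 and Tc9 cells. These genes were chosen by symbol, as the probe sets of the array whose platform annotation names 1 of 38 listed genes. Of the 38, 36 had a probe set, 1 each, among 19505 measured genes. No probe set carried Bax or Ripk1 as its only symbol, and these genes were not analysed here. Tc1 and Tc9 cells are CD8 T cells steered in culture toward interferon gamma and toward interleukin 9 production. Both groups started from CD8 T cells isolated from mouse spleen and lymph node and primed with plate-bound antibody to CD3 and soluble antibody to CD28. Tc1 cells were polarized with recombinant human IL-2 at 10 ng/mL. Tc9 cells were polarized with TGF-beta at 1 ng/mL, IL-4 at 10 ng/mL and XMG1.2, an antibody that neutralizes interferon gamma, at 20 µg/mL. The labels do not state if IL-2 was present while Tc9 cells were polarized. After 3 days both groups went into standard medium with 10 ng/mL rhIL-2 for another 2 days, and RNA was taken at day 5. The sources used here do not give strain, age or genotype, and the source name of the Tc9 sample says Tc1 while its title and description say Tc9, which was followed. There was 1 array per group, so no difference below has a replicate check or a p-value, and each describes this pair of arrays.

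Apoptosis through mitochondria is set by the balance within the BCL-2 family. Anti-apoptotic members such as BCL-2, BCL-XL and MCL-1 hold the pore-forming effectors BAX and BAK in check, and BH3-only proteins such as BIM and PUMA release that hold. Cytochrome c then joins APAF-1 and caspase-9, which activates effector caspases, while inhibitor of apoptosis proteins restrain caspases or shape signalling at death receptors. At those receptors FADD recruits caspase-8, cFLIP modulates it, and RIPK3 and MLKL carry out necroptosis when caspase-8 is blocked. In T cells, BIM is known as the main BH3-only protein in the death of activated cells after antigen or cytokine is withdrawn.

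Casp6, an effector caspase known for cleaving nuclear lamins, had the largest difference of the 36 genes and was 3.59-fold higher on the Tc9 array. Bcl2l11, which encodes BIM, was 2.24-fold lower. They were the only members past 2-fold in either direction on the deposited values. In bulk RNA such as this, fewer cells of a type and less RNA per cell cannot be told apart. At a lower bar of 1.5-fold, Ripk3 was also higher, and Bcl2a1b, Casp4 and Mlkl were lower, which left 30 members within 1.5-fold. That is 2 of 36 members past 2-fold (5.56%) against 3.88% of all measured genes, and 6 of 36 past 1.5-fold (16.7%) against 14.8%. By direction, 1 of 36 was at least 2-fold higher against 1.80% of all genes and 1 was as much lower against 2.08%. At 1.5-fold, 2 were higher against 6.82% and 4 lower against 7.94%. The share of all genes depended on how dim values were treated. The members' shares stayed the same with dim values at the detection threshold and with a pseudocount of 32. Filters on mean signal raised them, at 1.5-fold to 18.2% of 33 members and 20.7% of 29. With dim values set to the detection threshold, 2.20% of all genes were past 2-fold and 6.40% past 1.5-fold, and with a pseudocount of 32 the shares were 2.08% and 6.49%. In those settings the 4 members at least 1.5-fold lower (11.1%) stand beside 2.81% and 3.06% of all genes, and the 2 higher (5.56%) beside 3.59% and 3.43%. Both settings shrink the differences of dim genes. By mean log2 intensity 33 of the 36 members but 9760 of the 19505 genes reached the threshold, so these gaps are partly built in. Among those 9760 genes, 5.88% were lower and 7.27% higher, beside 12.1% and 6.06% of the 33 members. With 1 array per group, whether the list differs more often than genes in general was not tested. Median centring of the arrays moved the share of higher genes among all genes past 1.5-fold from 46.2% to 58.9% and left these 2 and 4 members in place. The median difference, log2 Tc9 minus log2 Tc1, was -0.05 over the 36 members and 0.00 over all genes, and under median centring these became 0.02 and 0.07. Centring shifts all genes equally, so the members' median lay 0.05 below that of all genes in both settings. Over the other settings this gap ran from 0.01, with dim values at the threshold, to 0.15. The latter was with a filter at the 95th percentile of the control probe sets with neg in their ID. Values are log2 of the deposited intensities, called signals below. The detection threshold was a signal of 6.43, which is the median over every gene value of the pair of arrays. Of the members, 32 reached it on both arrays, Bcl2l14 on the Tc1 array only, and Bmf, Casp9 and Casp12 on neither.

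**Figure D1:**
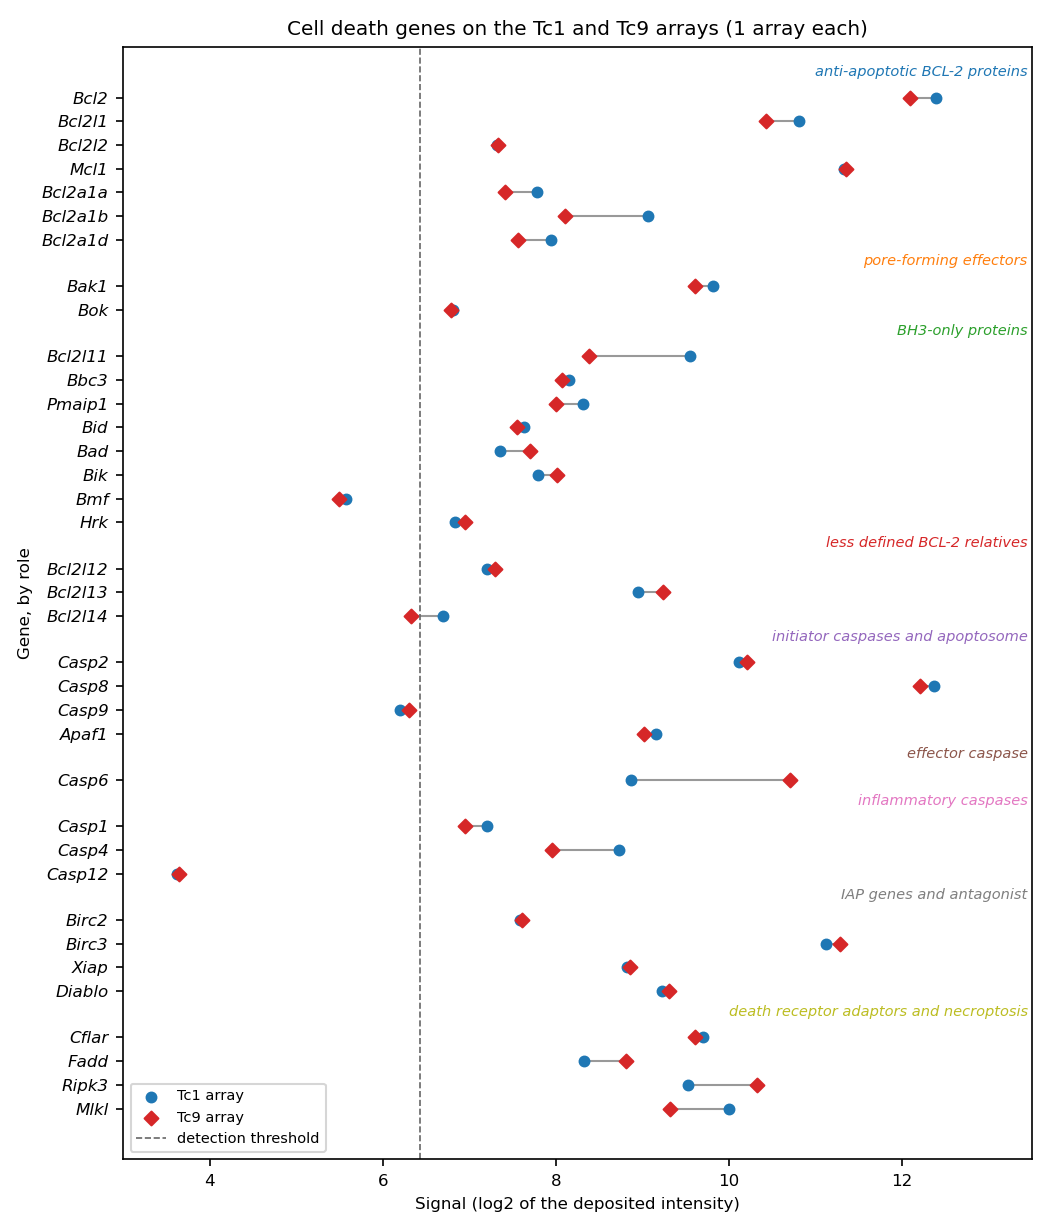
Signals of the 36 genes (x axis, log2 of the deposited intensity) on the Tc1 array (circles) and the Tc9 array (diamonds), grouped by role on the y axis, with the detection threshold of 6.43 as a dashed line; each symbol is 1 array and there are no error bars. Most pairs nearly coincide, while Casp6 moves from 8.86 to 10.70 and Bcl2l11 from 9.55 to 8.38.

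Among the anti-apoptotic BCL-2 genes, the 3 Bcl2a1 copies, Bcl2 and Bcl2l1 were lower on the Tc9 array and Mcl1 and Bcl2l2 hardly differed. Of the 7 genes, 1 was past 1.5-fold and none past 2-fold on the deposited values, with a median difference of -0.37. Bcl2, the founding survival gene of the family, had intensities of 5361 and 4346 (Tc1 first, here and below) and was 1.23-fold lower on the Tc9 array. Bcl2l1, which encodes BCL-XL, had 1797 and 1372 and was 1.31-fold lower. Mcl1, which encodes a short-lived survival protein that T cells depend on, had 2566 and 2622, a difference of 0.03 on the log2 scale. Bcl2l2, which encodes BCL-w, was likewise level, at 159 and 161. Mcl1 and Bcl2l2 were thus the members of this group with higher values on the Tc9 array, and Bcl2l2 turned to lower after quantile normalization.

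The Bcl2a1 genes encode A1, a survival protein that activated lymphocytes and myeloid cells express, and the mouse carries several near-identical copies of it. Bcl2a1b had intensities of 533 and 275 and was 1.94-fold lower on the Tc9 array, just inside 2-fold, and it passed 2-fold after quantile normalization with a difference of -1.01. Bcl2a1a had 219.8 and 171, and Bcl2a1d had 245 and 189, which are 1.29-fold and 1.30-fold lower. All 3 copies were lower, and the log2 difference of Bcl2a1b lay 0.59 below that of Bcl2a1a and 0.58 below that of Bcl2a1d. How similar the copies are is shown by the 250 bases before their annotated starts, from RefSeq on GRCm38.p6, where capitals in the Bcl2a1b and Bcl2a1d lines mark bases that differ from the aligned Bcl2a1a base. Bcl2a1a lies at chr9:88956670-88956919 on the plus strand, Bcl2a1b at chr9:89199023-89199272 on the plus strand and Bcl2a1d at chr9:88731851-88732100 on the minus strand.
Bcl2a1a: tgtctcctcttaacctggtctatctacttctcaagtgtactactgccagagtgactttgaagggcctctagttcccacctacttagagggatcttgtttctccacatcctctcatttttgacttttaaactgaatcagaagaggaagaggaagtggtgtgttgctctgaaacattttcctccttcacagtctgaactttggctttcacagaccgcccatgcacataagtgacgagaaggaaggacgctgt
Bcl2a1b: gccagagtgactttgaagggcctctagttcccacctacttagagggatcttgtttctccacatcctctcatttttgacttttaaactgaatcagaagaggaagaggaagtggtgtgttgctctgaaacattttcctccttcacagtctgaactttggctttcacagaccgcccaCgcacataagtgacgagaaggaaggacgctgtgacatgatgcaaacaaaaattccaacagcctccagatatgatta
Bcl2a1d: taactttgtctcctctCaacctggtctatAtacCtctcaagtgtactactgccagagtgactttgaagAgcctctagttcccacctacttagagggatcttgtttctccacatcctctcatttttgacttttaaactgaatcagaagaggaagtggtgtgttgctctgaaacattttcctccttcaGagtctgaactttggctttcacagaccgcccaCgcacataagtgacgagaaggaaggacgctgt
Bcl2a1a and Bcl2a1b were identical at 205 of 206 aligned positions, and Bcl2a1a and Bcl2a1d at 238 of 250, with 6 mismatches and 6 gap positions. The Bcl2a1b start lies further downstream, which is why its stretch is shifted. Transcript and probe sequences of these copies were not used here, and whether their probe sets hybridise to each other's RNA was not tested. Their values may therefore not be separate measurements. The copies lie close together on the chromosome, with 2 protein-coding genes between Bcl2a1d and Bcl2a1a and 1 between Bcl2a1a and Bcl2a1b. B cells and myeloid cells express these genes too. All 9 measured B cell markers had lower signals on the Tc9 array, with a median difference of -0.43, and 4 of 8 monocyte and macrophage markers did. The part of those cells in the Bcl2a1 values was not tested.

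Of the pore-forming effectors, Bak1 had intensities of 902 and 778 and was 1.16-fold lower on the Tc9 array. Bok, a BAK relative, had 112 and 111, near the detection threshold, and its difference of -0.02 changed sign under quantile normalization and median centring. Neither gene was past 1.5-fold.

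The BH3-only group was led by Bcl2l11, whose intensities were 748 and 334. Its log2 difference was -1.16 and stayed between -1.23 and -1.09 over the settings tried. Ordered from the most negative difference over all 19505 genes, it took place 270. Pmaip1, which encodes NOXA, an antagonist of MCL-1, had 317 and 256 and was 1.24-fold lower. Bbc3, which encodes PUMA, a p53 target, had 285 and 268, a difference of -0.09. Bid, which links caspase-8 to mitochondria, had 199 and 187, a difference of -0.09. These BH3-only genes were all lower on the Tc9 array, and Bcl2l11 was the only one beyond 1.5-fold.

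On the other side of zero, Bad, whose protein is held inactive by phosphorylation downstream of growth factors, had 163 and 208 and was 1.27-fold higher on the Tc9 array. Bik, a BH3-only protein of the endoplasmic reticulum, had 221 and 257 and was 1.16-fold higher. Hrk had 114 and 123, a difference of 0.11. Bmf, at 47.6 and 45.2, reached the threshold on neither array and gets no fold. Of the 8 BH3-only genes, 3 were higher and 5 lower on the Tc9 array, with a median difference of -0.08, and 4 and 4 after quantile normalization. The log2 difference of Bcl2l11 lay 0.86 below that of Bcl2 and 1.20 below that of Mcl1. Among the other anti-apoptotic genes, Bcl2l1 (-0.39) and the Bcl2a1 copies (-0.96 to -0.37) lay closer to it than Bcl2 did, and Bcl2l2 (0.01) further.

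Both annotated Bcl2l11 start windows are shown because it is the BCL-2 family gene past 2-fold. They give the 250 bases before each start on the plus strand of GRCm38.p6 from RefSeq, with CG dinucleotides in capitals. The first lies at chr2:128125788-128126037 and the second at chr2:128127325-128127574.
Bcl2l11 first start: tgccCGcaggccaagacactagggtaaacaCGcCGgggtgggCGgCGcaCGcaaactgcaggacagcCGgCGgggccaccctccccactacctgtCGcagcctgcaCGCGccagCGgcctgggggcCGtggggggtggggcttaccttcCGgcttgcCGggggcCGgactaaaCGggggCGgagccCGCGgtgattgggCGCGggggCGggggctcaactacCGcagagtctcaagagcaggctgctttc
Bcl2l11 second start: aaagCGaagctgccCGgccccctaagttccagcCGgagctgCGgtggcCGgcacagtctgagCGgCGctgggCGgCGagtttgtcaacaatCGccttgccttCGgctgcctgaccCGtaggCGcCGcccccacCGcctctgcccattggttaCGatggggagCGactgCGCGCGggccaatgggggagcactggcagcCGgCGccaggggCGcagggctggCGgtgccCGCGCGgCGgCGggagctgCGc
They hold 24 and 30 CG dinucleotides. Over the whole windows of 300 bases, 250 before and 50 after the start, the counts were 27 and 38, and 84.5% and 95.1% of the 32851 windows in the RefSeq table had fewer.

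Of the less defined relatives, Bcl2l13, a mitochondrial protein also linked to mitophagy, had 494 and 601 and was 1.22-fold higher on the Tc9 array. Its chromosomal neighbour Bid, with no protein-coding gene between them, had the slightly negative difference given above. Bcl2l12 had 147 and 157, a difference of 0.09. Bcl2l14 had 104 and 80.0, the second below the threshold, so it was at least 1.20-fold lower on the Tc9 array. None of the 3 was past 1.5-fold.

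Casp6 had intensities of 465 and 1668. Its log2 difference of 1.84 stayed between 1.77 and 1.91 over the settings tried, and it took place 83 of 19505 genes ordered from the largest difference toward Tc9 cells. The 250 bases before its start, at chr3:129901165-129901414 on the plus strand of GRCm38.p6 from RefSeq, are given with CG dinucleotides in capitals.
Casp6: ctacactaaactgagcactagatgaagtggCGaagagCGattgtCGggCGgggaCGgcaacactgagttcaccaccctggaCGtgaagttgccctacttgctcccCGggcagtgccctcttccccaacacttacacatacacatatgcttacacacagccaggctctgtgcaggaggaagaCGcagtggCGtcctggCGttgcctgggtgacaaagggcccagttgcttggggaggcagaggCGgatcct
The stretch holds 11 CG dinucleotides, and the whole window of 300 bases holds 16. Of all windows in the table, 67.0% had fewer.

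The initiator caspases and APAF-1 stayed close together on the arrays. Casp8, the initiator at death receptors, had intensities of 5284 and 4720.4 and was 1.12-fold lower on the Tc9 array. Casp2, an initiator tied to DNA damage and the cell cycle, had 1109.7 and 1186 and was 1.07-fold higher. Apaf1, the scaffold of the apoptosome, had 569 and 520.1 and was 1.09-fold lower. Casp9, the initiator that APAF-1 activates, reached the threshold on neither array, at 73.5 and 79.0. None of these 4 genes was past 1.5-fold.

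The inflammatory caspases form a cluster with no other protein-coding gene between Casp1 and Casp4 or between Casp4 and Casp12. Casp4, the mouse gene long called caspase-11, which senses bacterial lipopolysaccharide and cleaves gasdermin D, had 425 and 248 and was 1.72-fold lower on the Tc9 array. Casp1, which matures IL-1 beta and IL-18, had 148 and 124 and was 1.19-fold lower. Casp12, at 12.3 and 12.5, was far below the threshold everywhere. The Casp4 value alone passed 1.5-fold, with differences between -0.84 and -0.71 over the settings. The first of its 2 annotated start windows is shown beside those of Casp6 and Bcl2l11, since it is the inflammatory caspase that differed. It lies at chr9:5308599-5308848 on the plus strand, again with CG dinucleotides in capitals.
Casp4: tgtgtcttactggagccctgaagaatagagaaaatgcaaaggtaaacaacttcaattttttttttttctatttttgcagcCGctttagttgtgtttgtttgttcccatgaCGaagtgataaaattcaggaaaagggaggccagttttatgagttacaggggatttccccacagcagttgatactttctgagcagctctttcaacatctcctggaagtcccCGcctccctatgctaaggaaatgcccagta
It holds 3 CG dinucleotides, against the 24 and 30 of Bcl2l11 over the same length.

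The inhibitors of apoptosis and their antagonist hardly differed. Birc3, which encodes cIAP2, an NF-kB target, had 2219 and 2485 and was 1.12-fold higher on the Tc9 array. Birc2, which encodes cIAP1, lies next to Birc3 on the chromosome and had 192 and 196, a difference of 0.03. Xiap, a direct caspase inhibitor, had 451 and 463, a difference of 0.04. Diablo, which encodes SMAC, the mitochondrial protein that displaces IAP proteins from caspases, had 597 and 635, a difference of 0.09. All 4 values were higher on the Tc9 array, by at most 0.16 on the log2 scale, and Birc2 and Xiap turned to lower after quantile normalization.

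At death receptors and in necroptosis, partners differed in opposite directions. Ripk3, the kinase that phosphorylates MLKL, had intensities of 735 and 1278 and was 1.74-fold higher on the Tc9 array. Mlkl, the executor that permeabilises the membrane, had 1019 and 639 and was 1.60-fold lower. Fadd, the adaptor that brings caspase-8 to receptors, had 319 and 447 and was 1.40-fold higher, the closest value below 1.5-fold. Cflar, which encodes cFLIP and lies next to Casp8, had 832 and 779, a difference of -0.09. The ranges over the settings were 0.77 to 0.87 for Ripk3 and -0.72 to -0.61 for Mlkl, so neither changed side at 1.5-fold.

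**Figure D2:**
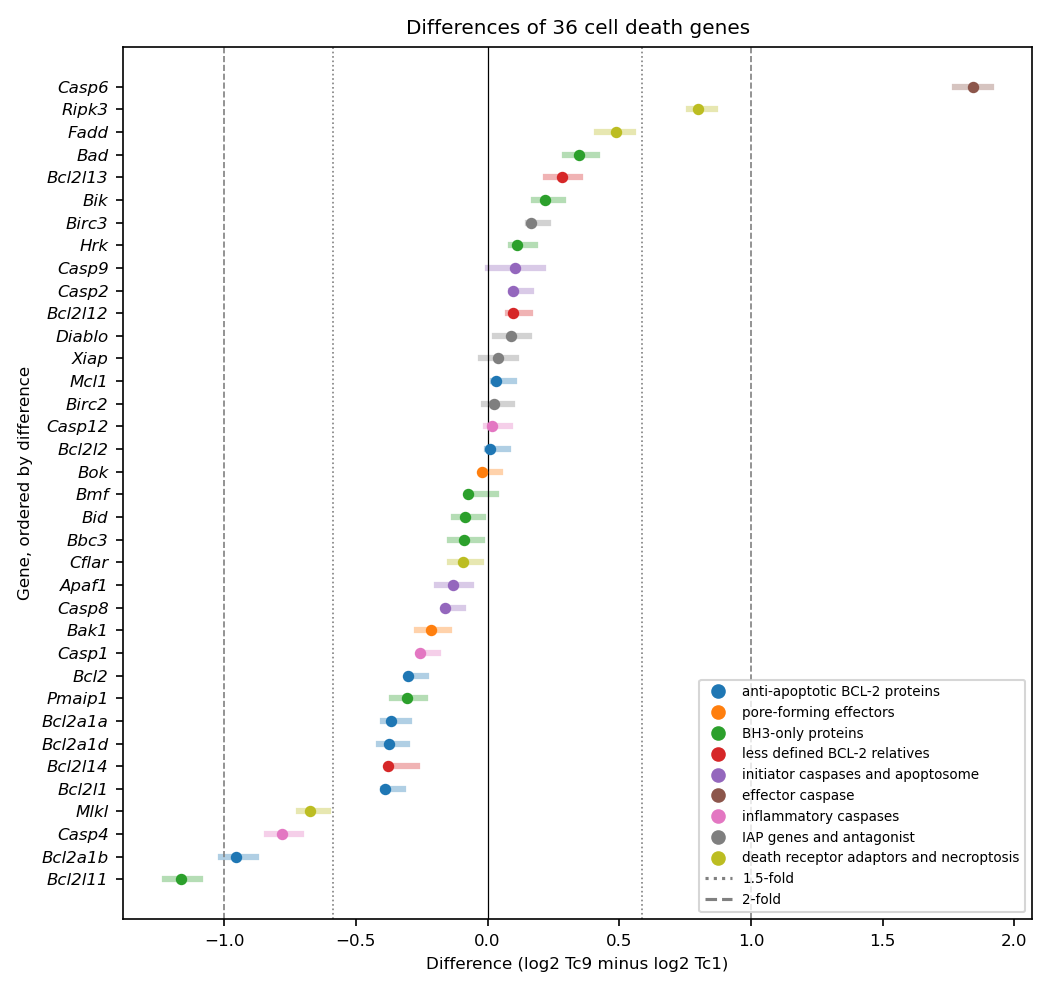
Differences of the 36 genes (x axis, log2 Tc9 minus log2 Tc1), ordered by size on the y axis and coloured by role; points are the deposited values, and bars span the lowest to the highest value over these and 5 alternative settings, not a replicate error. Casp6 at 1.84 and Bcl2l11 at -1.16 lie past the dashed 2-fold lines, Ripk3, Mlkl, Casp4 and Bcl2a1b lie between the dotted 1.5-fold and the 2-fold lines, and the bar of Bcl2a1b crosses 2-fold.

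The place of these genes among all others depends on signal. Among the 9760 genes whose mean signal reached the threshold, 4.66% were past 2-fold and 13.2% past 1.5-fold, and 33 members belonged to this set. At 1.5-fold, 7.27% of that set were higher and 5.88% lower on the Tc9 array, beside 6.06% and 12.1% of the 33 members. All 6 members past 1.5-fold had mean signals between 8.34 and 9.92. As a scale for the pair of arrays, 95% of the 1141 control probe sets with pos in their ID and a mean signal at the threshold differed by less than 0.70 on the log2 scale. Of these controls, 1.14% were past 2-fold and 9.73% past 1.5-fold. The same limit for the 460 such controls with neg in their ID was 1.37, and 12.6% of those were past 2-fold and 36.1% past 1.5-fold. Median differences were 0.11 for the pos and -0.34 for the neg controls, so both limits hold a shift as well as scatter. Casp6 alone of the 36 members lay beyond both limits, Bcl2l11, Bcl2a1b, Ripk3 and Casp4 beyond the first, and Mlkl within both. These controls were not matched to the genes on signal.

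**Figure D3:**
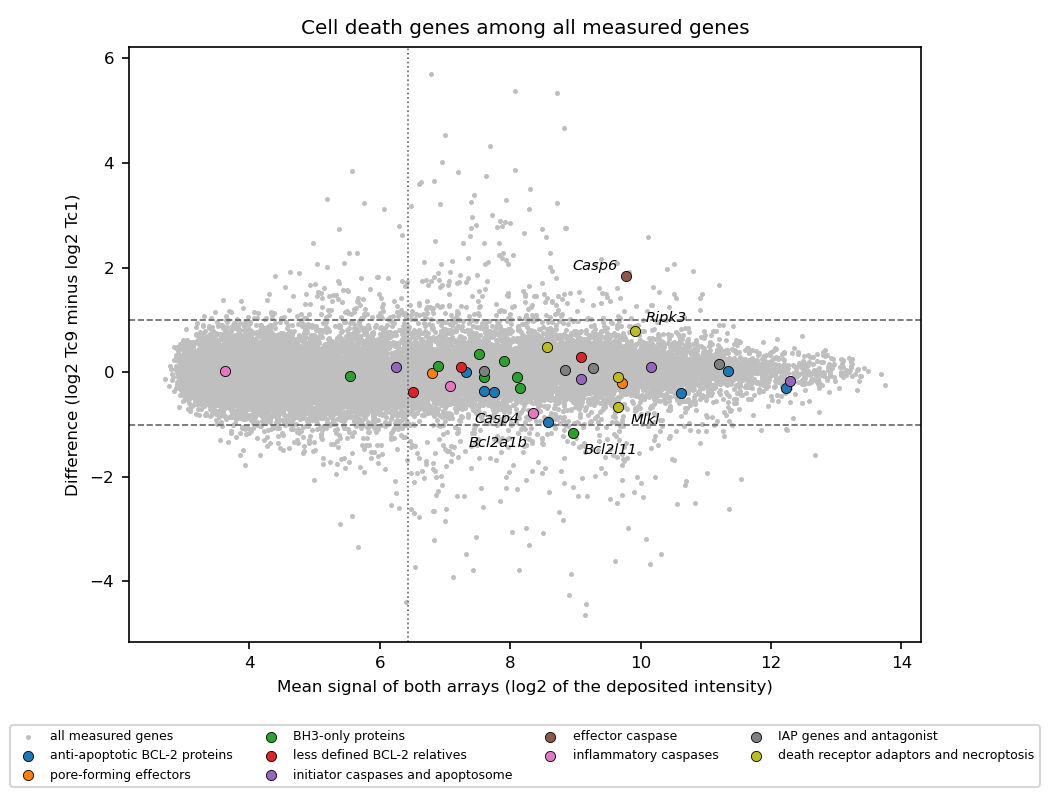
Difference (y axis, log2 Tc9 minus log2 Tc1) against the mean signal of both arrays (x axis, log2 of the deposited intensity) for 19505 genes in grey and 36 cell death genes coloured by role; dashed lines mark 2-fold and the dotted line the threshold of 6.43. Casp6 lies past the upper dashed line and Bcl2l11 past the lower, with Bcl2a1b at -0.96 just inside it, and other genes reach from -4.64 to 5.70.

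Start windows of 300 bases were in the RefSeq table for 34 of the 36 members, 47 windows in all, and were searched on both strands for 3 motifs. The core of the interferon-stimulated response element, GAAA followed by any NN and then GAAA, was in 3.44% of all 32851 windows, the STAT or gamma-activated site TTCNNNGAA in 8.30%, and a narrow form of the NF-kB site, GGGAN followed by TTTCC, in 0.411%. None of the 6 members past 1.5-fold held any of the 3 in its windows. Cflar held the first motif once, on the minus strand, and Casp12 the second at 2 places, 102 to 94 and 36 to 28 bases before its start, and no member held the narrow NF-kB form. The matches are shown with up to 10 flanking bases on each side and the motif in capitals, at chr1:58711487-58711516 for Cflar, and at chr9:5345364-5345392 and chr9:5345430-5345458 for Casp12, all written along the plus strand.
Cflar: ccacgtctgcTTTCGGTTTCtgggcgtctc
Casp12 first: ctggttgactTTCTGGGAAaagagcagga
Casp12 second: attggtatgtTTCTGGGAAggaaaggcac
Cflar had a difference of -0.09, and Casp12 reached the threshold on neither array. The general NF-kB consensus, which allows more letters than the narrow form, was searched after the results were known and was in 8.46% of all windows. It was in 7 of the 47 member windows, which belong to 6 of 34 members, and of the 6 members past 1.5-fold Casp4 held it. In the Casp4 stretch printed above it begins 93 and 92 bases before the start, as overlapping matches, the second of them on both strands, and again 39 bases before it on the minus strand. The second Casp4 window overlaps the first and holds the same matches. Bbc3, Bcl2l1, Bmf, Hrk and Xiap held it in 1 window each, and none of these 5 was past 1.5-fold. A match is a run of letters, not a binding site, and a window without a match says only that these letters are not in it.

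Other genes of the same pathways were read from 7 lists, of which 55 of 61 genes had a probe set. Of the 55, 1 was at least 2-fold higher on the Tc9 array and 5 were at least 2-fold lower (1.80% and 2.08% of all genes). Of these 5, Il1b and Il18 reached the threshold on neither array. The median difference was -0.05. Fasl, the ligand of Fas, had intensities of 267 and 94.1 and was 2.84-fold lower on the Tc9 array, and Fas itself had 420 and 206 and was 2.04-fold lower. Tnfsf10, which encodes TRAIL, had 319 and 1424 and was 4.46-fold higher, while its receptor gene Tnfrsf10b had 855 and 481 and was 1.78-fold lower. Tradd, an adaptor of TNF receptors, was 1.60-fold higher, at 491 and 786. Of the 15 genes in that list, 1 was at least 2-fold higher and 2 lower, with a median of -0.07.

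Zbp1, an interferon-induced nucleic acid sensor that can engage RIPK3, had 576 and 225 and was 2.56-fold lower on the Tc9 array. It was the only one of 3 measured necroptosis sensors and partners past 2-fold. In the inflammasome and pyroptosis list, Gsdmd, the pore protein that caspase-4 and caspase-1 cleave, had 412 and 274 and was 1.51-fold lower, and Pycard, the inflammasome adaptor ASC, had 249 and 384 and was 1.54-fold higher. Of its 9 genes, 6 were dim on each array. All 10 genes of mitochondrial release were within 1.5-fold, among them Cycs, cytochrome c, with a difference of 0.02. All 5 measured executioner substrates and partners were within 1.5-fold as well. Of 5 other IAP genes, Naip5 was past 1.5-fold but reached the threshold on neither array. Among 8 measured regulators and partners of BH3-only proteins, Foxo1 was 1.57-fold higher, at 919 and 1445, and Foxo3 had 515 and 419.9 and was 1.23-fold lower. Dynll1, a dynein light chain that binds BIM, differed by 0.07.

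**Figure D4:**
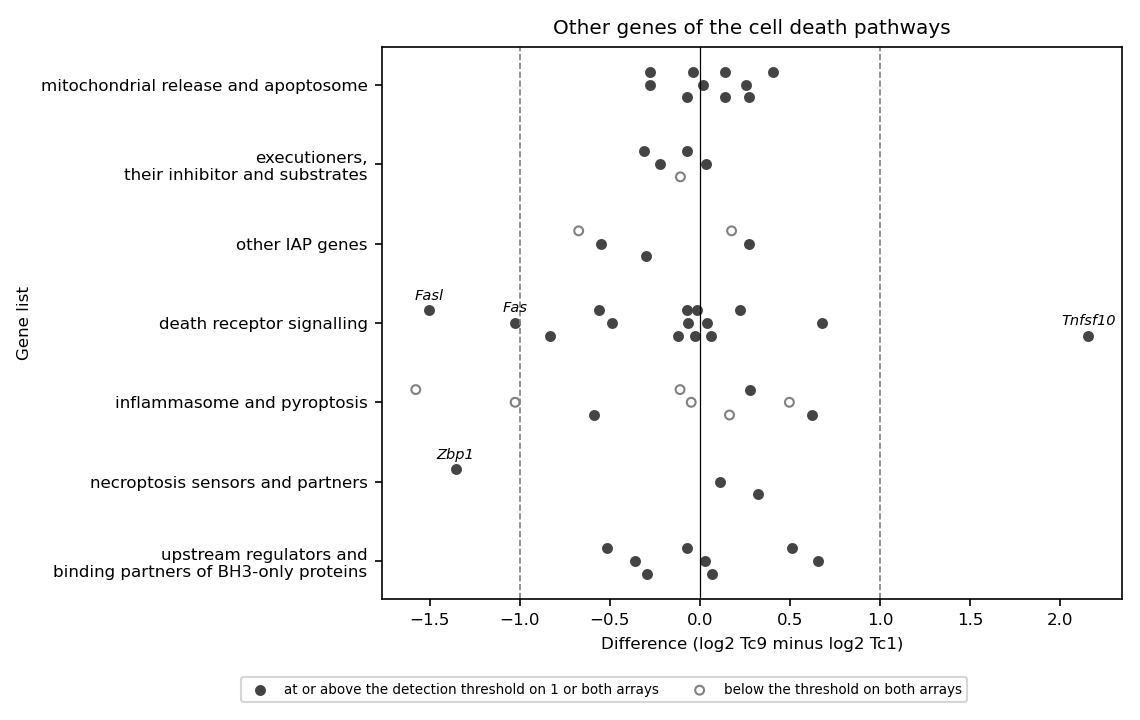
Differences (x axis, log2 Tc9 minus log2 Tc1) of 55 other genes of the cell death pathways in 7 lists (y axis); each point is 1 gene on 1 array per group, filled where the gene reached the threshold on 1 or both arrays and open where it did not, and dashed lines mark 2-fold. Tnfsf10 at 2.16 lies far to the right, and Fasl, Zbp1 and Fas lie past the line on the left.

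Marker genes of T cells, and of cell types the cultures could also hold, were set beside these values. All 10 measured T cell markers were above the threshold on both arrays, with summed intensities of 30137 and 24408. Of the 10, 9 were lower on the Tc9 array, with a median difference of -0.28. Cd3e, at signals of 12.92 and 12.80, and Cd8a, at 12.19 and 11.93, were 1.09-fold and 1.20-fold lower. Cd5 was 3.15-fold and Cd6 3.11-fold lower, which is further than Bcl2l11, and Zap70 was 1.47-fold higher. Of 9 B cell markers, 8 were at or above the threshold in Tc1 cells and 6 in Tc9 cells, all 9 were lower on the Tc9 array, with a median of -0.43, and their summed intensity was 4550 and 3201. Of 8 monocyte and macrophage markers, 4 were at or above it in Tc1 cells and 3 in Tc9 cells, with summed intensities of 1058 and 1009, and Csf1r, Adgre1, Cd14 and Mrc1 were below it on both. Fcgr3 was lower by a log2 difference of -0.87 and Lyz2 was higher by 0.43. Myeloid cells express Casp1 and Casp4, and the part of these markers in those values was not tested. Of 7 dendritic cell markers, Zbtb46 and H2-Aa reached the threshold, the former on the Tc1 array only, with sums of 2422 and 1855. H2-Aa alone made up 2199 and 1643 of these sums, and Flt3, Itgax, Xcr1, Clec9a and Siglech were below the threshold on both arrays. By direction, 4 of the 7 were lower on the Tc9 array, among them Zbtb46 (-1.26) and H2-Aa (-0.42). The 3 higher ones were Flt3 (0.41), Xcr1 (0.65) and Itgax (1.06), the last at 85.1 on the Tc9 array, just under the threshold. Of 4 NK cell markers, Ncr1, Klrb1c and Klri2 were below it on both arrays, with differences of -0.95, -1.50 and -1.50, and Kit reached it on the Tc9 array only, with a difference of 0.24. Their summed intensities were 210.4 and 146. Of 5 neutrophil markers, Elane reached it on the Tc1 array only, with a difference of -0.64. S100a8 and S100a9 were below it on both arrays but higher on the Tc9 array by 2.48 and 1.36, where their intensities of 74.6 and 80.4 lay just under it, and Mpo and Cxcr2 were below it and lower on the Tc9 array. The neutrophil sums were 201 and 265.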

How the data were processed

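Total RNA of 1 Tc1 and 1 Tc9 culture was hybridised to Affymetrix arrays. The authors deposited linear intensities, 1 value per probe set and array. Trizol extraction and biotin labelling of whole transcripts (sense targets) are stated per the labels' protocols. The sources used here do not say how probes were summarized, corrected for background or normalized. The medians (57.2 for Tc1, 53.1 for Tc9) and the upper quartiles (330.5 and 346.2) lay close together, so log2 of the deposited intensities was used without further normalization.

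Of 28846 probe sets, 9274 did not carry a single gene symbol and 19572 did, which gave 19505 genes. Of these, 55 had several probe sets and were read from the brightest. All 36 member symbols matched the GRCm38.p6 RefSeq table by Entrez number. No build is named for the array, so coordinates are given only for RefSeq start windows.

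Differences are log2 Tc9 minus log2 Tc1. No test was possible with 1 array per group. Precision is limited by the number of arrays. Genes past 2-fold and 1.5-fold were counted over all measured genes. A fold is given where both arrays reached the threshold, and "at least", computed from the threshold, where 1 did. Below it lay 89.9% of 5222 control probe sets with neg in their ID in Tc1 cells and 91.7% in Tc9 cells. Every member with a probe set is named. Of other pathway genes, those past 2-fold that reached the threshold on 1 or both arrays are named by rule. The remaining ones, and the marker genes given with values, were chosen after their values were seen. Members, lists and motifs (the general NF-kB consensus last) were chosen with earlier results of these data known. Alternatives were quantile normalization, median centring, dim values at the threshold, a pseudocount of 32, the mean of probe sets, a filter on mean signal, and a threshold at the 95th percentile of the neg controls. The counting code was run on simulated data with planted differences larger than that of any member. That run checks the code, not the calls near 1.5-fold or 2-fold. Analyses used Python 3.11.15 with numpy 2.4.6, pandas 2.3.3 and Biopython 1.88.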

Additional observations from a re-analysis of the deposited data

How the results depend on the processing

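The 6 members past 1.5-fold stayed past it with the same direction under quantile normalization, median centring, dim values at the threshold, a pseudocount of 32 and the mean of probe sets, and no other member joined them. The share of all genes past 1.5-fold fell from 14.8% to 6.40% with dim values at the threshold and to 6.49% with the pseudocount. Quantile normalization raised the members at least 2-fold lower from 1 to 2, since Bcl2a1b reached -1.01. It also turned the sign of 6 members with main differences of at most 0.07 in size, and median centring that of Bok. With the threshold at the 95th percentile of the neg controls, a signal of 7.16, the members below it on 1 or both arrays went from 4 to 7. The median difference of the members ran from -0.09 to 0.02, and that of all genes from 0.00 to 0.07. No paired analysis was possible because each group has 1 array, and no replicate could be left out for the same reason. Signals near the threshold (Bok, Hrk and Bcl2l14) or below it on both arrays (Bmf, Casp9 and Casp12) carry the least information.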
